A study of Canis lupus familiaris with 34 samples.

Results

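Cultured cell lines of canine hemangiosarcoma (HSA), a malignant tumor thought to form from cells of the blood vessel wall, were set against lines of canine osteosarcoma (OSA), a malignant tumor of bone. All 10 arrays labelled hemangiosarcoma, whatever the breed, and all 5 labelled osteosarcoma were taken, 15 of the 34 arrays in the series. Each line is represented by 1 Affymetrix Canine_2 array, on which a gene is read by 1 or more sets of probes, and values are log2 intensities. The question was what each kind of sarcoma line expresses beyond the other. The HSA lines were grown from the spleen. They came from 6 golden retrievers (ChadG4, ChadG6, ChadG8, Frog, Journey and Tucker), a Rottweiler (Joey), a cross of golden retriever and Great Pyrenees (DD1), a Portuguese Water Dog (ChadP9) and a dog labelled Dalmation (Dal4). The OSA lines OSCA20, OSCA23, OSCA59, OSCA75 and OSCA71 came from the bone of golden retrievers. All 15 were cultured cells of early passage, and no line received a treatment. Per the study's methods, the HSA cells were grown in conditions that favor endothelial cells, and Frog and Journey came from related dogs. No culture medium was found for the OSA lines. Tumor type, organ and possibly culture and array batch therefore differ together and cannot be told apart. Breed differs in part, since 6 HSA lines and all 5 OSA lines came from golden retrievers. Values of 3 cultures of splenic hematoma, a non-malignant lesion, are given beside some results without a test. They came from a golden retriever (Pippin), a Standard Poodle (Baxter) and a Keeshond (Kylie), so breed differs there too.

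Sarcomas arise from mesenchyme, the loose embryonic tissue that gives rise to vessel wall, bone, cartilage and fibroblasts. Endothelial cells line vessels and are known by junction and receptor proteins such as CD31 (PECAM1), VE-cadherin (CDH5) and von Willebrand factor (VWF). Osteoblasts lay down bone matrix under the transcription factor RUNX2 and make alkaline phosphatase (ALPL), bone sialoprotein (IBSP) and osteocalcin (BGLAP). Cells in culture often lose such markers while they keep transcription factors that mark the part of the body they came from. No sequences are shown, since no sequence of the probe sets or genes was at hand.

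The defining markers of neither lineage were strongly expressed. In HSA lines PECAM1 lay between 4.15 and 4.90, CDH5 between 4.79 and 5.13, the angiopoietin receptor TEK between 3.70 and 4.18 and VWF between 4.70 and 5.91, while the medians of these arrays lay between 5.62 and 5.68. Of these values only that of VWF in ChadG4, 5.91, was above its array median, and the next HSA line was at 5.17. These 4 genes were too low to be tested. The VEGF receptor KDR did not pass the test (mean 6.32 ± 0.62, SD, n = 10, against 6.30 ± 0.41, SD, n = 5), nor did the tight junction gene CLDN5. In OSA lines IBSP lay between 3.17 and 3.50 and RUNX2 between 5.12 and 5.62, below the array medians of 5.63 to 5.69. ALPL lay between 5.43 and 6.93 and BGLAP between 5.45 and 6.22 there, and neither was above the array medians on enough arrays to be tested. Without a test, the brightest probe sets of RUNX2 and ALPL read less in every HSA line than in any OSA line, the direction that the labels give. The HSA values were 4.70 to 5.07 and 4.77 to 5.42, so the ALPL ranges all but met. BGLAP was so in 9 of 10. IBSP was not so, at 2.96 to 3.96 in HSA, a range that spans the OSA values. A second ALPL probe set, also below the filter, differed by −0.44 (HSA minus OSA, log2) with overlapping ranges. The other RUNX2 probe sets, also below the filter, were mixed in sign, at +0.28, +0.10, +0.03 and −0.46 (HSA minus OSA, log2). The brightest CDH5 probe set lay between 5.25 and 5.63 in OSA, above every HSA line. The other CDH5 probe sets, also below the filter, differed by +0.07, +0.02 and −0.01, with overlapping ranges. The 2 groups are called here by their labels.

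Whole profiles parted by label. Over 42860 probe sets, HSA lines correlated with each other at 0.944 to 0.985 (45 pairs), OSA lines at 0.930 to 0.978 (10 pairs), and lines of different groups at 0.893 to 0.961 (50 pairs). Average linkage on 1 minus the correlation, divided into 2 groups, put 0 lines on the wrong side. OSCA20 was the OSA line most like HSA: its mean correlation was 0.953 with the 10 HSA lines and 0.952 with the other 4 OSA lines. For the other OSA lines the means were 0.920 to 0.947 with HSA and 0.941 to 0.966 with OSA.

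Control probe sets also parted the arrays by label. The mean of 9 control probe sets for bacterial transcripts that are added to every hybridization was 9.26 ± 0.16 on HSA arrays (SD, n = 10, from 8.95 to 9.54) and 10.12 ± 0.34 on OSA arrays (SD, n = 5, from 9.66 to 10.57), with no overlap and OSCA20 the lowest of the OSA arrays. The 3′ end of the beta-actin control exceeded its 5′ end by 0.39 ± 0.40 in HSA (SD, n = 10) and by 1.27 ± 0.65 in OSA (SD, n = 5), a gap that grows as RNA breaks down. For GAPDH the same gap was 0.57 ± 0.19 (SD, n = 10) and 0.12 ± 0.28 (SD, n = 5), the other way round. The part that these differences between arrays have in the results below was not tested separately from tumor type. The calls that remain with each control measure in the model are given beside the largest changes.

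**Figure D1:**
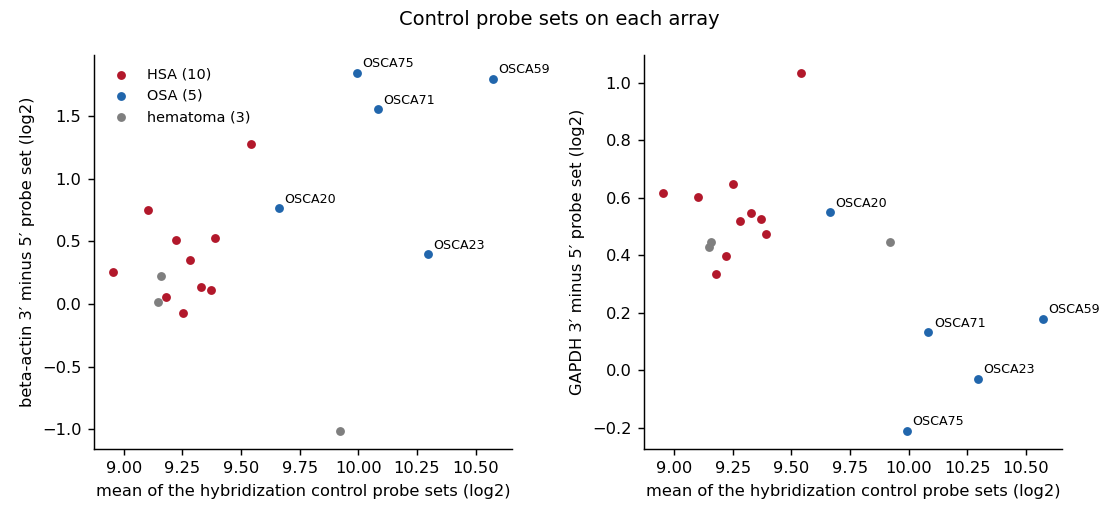
Control probe sets on the arrays of HSA lines, OSA lines and hematoma cultures. Each point is 1 array; the x axis is the mean log2 value of 9 hybridization control probe sets, and the y axes are the log2 difference between the 3′ and the 5′ probe set of beta-actin (left) and GAPDH (right). All OSA arrays lie to the right of all HSA arrays, with OSCA20, at 9.66, nearest to them.

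The 2 kinds of line differed widely. Probe sets entered the test when 5 or more of the 15 arrays had them above the array median, and they were called if limma, a linear model that shares its estimate of variance across probe sets, gave an adjusted p below 0.05 (Benjamini-Hochberg). Of 22857 probe sets tested, 3681 (16.1%) were higher and 2684 (11.7%) lower in HSA. Read as genes, with the brightest probe set standing for each, 9628 of 15115 genes were tested, 1357 (14.1%) were higher and 1140 (11.8%) were lower in HSA. The shares of 14.1% higher and 11.8% lower are the background for the counts of gene lists below. The median difference over all tested genes was 0.01. Differences are HSA minus OSA on the log2 scale throughout, so that 1 unit is a doubling. For 294 of the higher genes (3.05% of those tested) every HSA line lay above every OSA line, and for 287 of the lower genes (2.98%) every HSA line lay below. Large differences were few: 119 genes were higher and 119 lower by at least 2 units, 21 higher and 43 lower by at least 3, and 10 higher and 16 lower by at least 4. The call counts without OSCA20 were 4148 probe sets higher and 2952 lower, and with the 6 golden retriever HSA lines alone they were 2180 and 1549. The filter admits a gene expressed only in OSA if all 5 OSA lines pass the median, but a gene expressed only in HSA if 5 of 10 do. With no filter 4293 of 42860 probe sets were higher and 4460 lower, so that the share of calls that were higher was 57.8% with the filter and 49.0% without it.

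**Figure D2:**
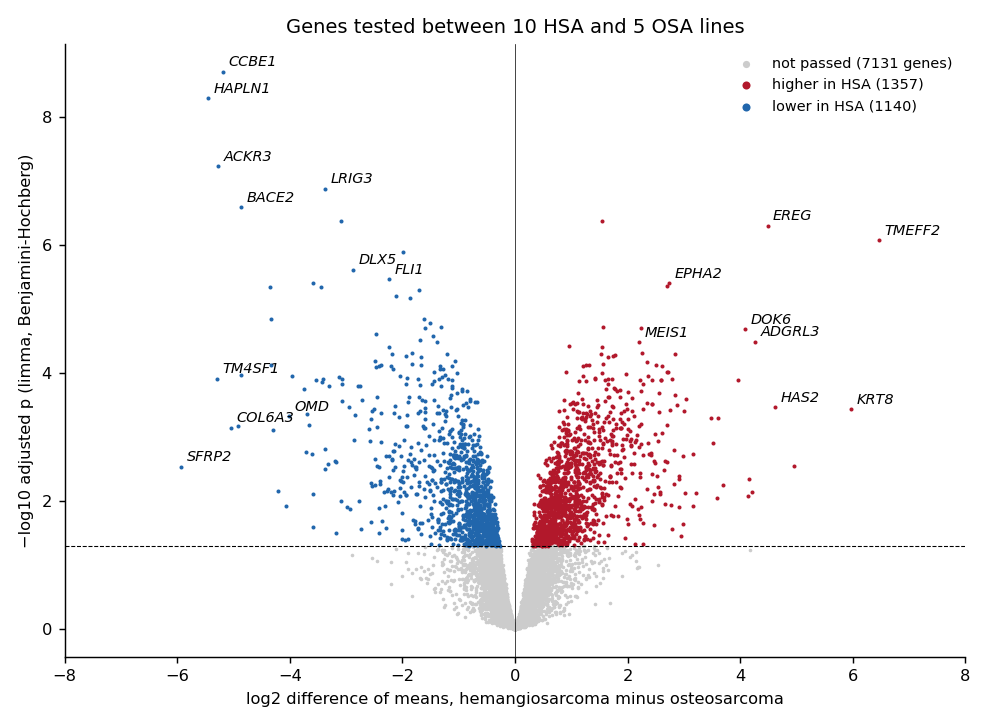
Difference and adjusted p of the 9628 genes tested between 10 HSA and 5 OSA lines. The x axis is the log2 difference of means, HSA minus OSA, the y axis −log10 of the limma adjusted p, and the dashed line is the 0.05 threshold. Red points are the 1357 genes higher and blue points the 1140 lower in HSA; HAPLN1 and CCBE1 on the left and TMEFF2 on the right lie farthest from the rest.

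Of 4 genes picked as markers of the contrast with earlier results known, TMEFF2 and KRT8 were higher in HSA, while CCBE1 and HAPLN1 were higher in OSA. TMEFF2, a transmembrane protein with EGF and follistatin domains known from brain and prostate, had values of 6.57, 4.24, 4.05, 4.42 and 4.05 in OSCA20, OSCA23, OSCA59, OSCA75 and OSCA71, the order kept for all OSA values below. In HSA it ran from 9.10 in ChadP9 over a median of 11.10 to 12.31 in ChadG6. No values overlapped, and OSCA20 was the highest of the OSA lines. The difference was +6.47 (SE 0.50, 88.6-fold; limma, adjusted p = 8.47e-07), and its 2 other probe sets differed by +5.31 and +6.16. KRT8, a keratin of simple epithelia, read 2.98, 2.98, 3.19, 2.92 and 2.88 in OSA, and in HSA 3.07 at the lowest, 9.51 at the median and 10.63 at the highest. The lowest value was that of ChadP9, which lay among the OSA lines, whereas the other 9 HSA lines lay at 8.31 or above. The difference was +5.97 (SE 0.91, 62.8-fold; limma, adjusted p = 0.000371).

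CCBE1, a secreted protein needed for lymphatic vessel growth, read 10.49, 8.49, 9.85, 9.35 and 9.48 in OSA and 4.13, 4.33 and 4.67 at the lowest, the median and the highest in HSA. The HSA lines were uniformly low and the OSA lines uniformly high. The difference was −5.18 (SE 0.23, 36.2-fold; limma, adjusted p = 1.97e-09). HAPLN1, a link protein that ties hyaluronan to proteoglycans in cartilage, read 9.56, 10.13, 10.29, 10.13 and 8.54 in OSA and 3.63, 4.25 and 4.96 in HSA, a difference of −5.45 (SE 0.26, 43.7-fold; limma, adjusted p = 5.12e-09). Again all OSA lines were high. The exact permutation test over the 3003 ways of choosing 5 of 15 arrays gave p = 0.000333, the smallest it can give, for TMEFF2, CCBE1 and HAPLN1, and p = 0.000666 for KRT8 (two-sided). Because these markers were picked with earlier results of these data known, their p-values are no independent evidence. In hematoma, cultures from 3 non-malignant blood-filled masses of the spleen, KRT8 read 10.38, 11.43 and 8.07 (Pippin, Baxter and Kylie) and TMEFF2 7.04, 6.45 and 9.77, while CCBE1 (4.27 to 4.65) and HAPLN1 (4.07 to 5.56) were low.

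**Figure D3:**
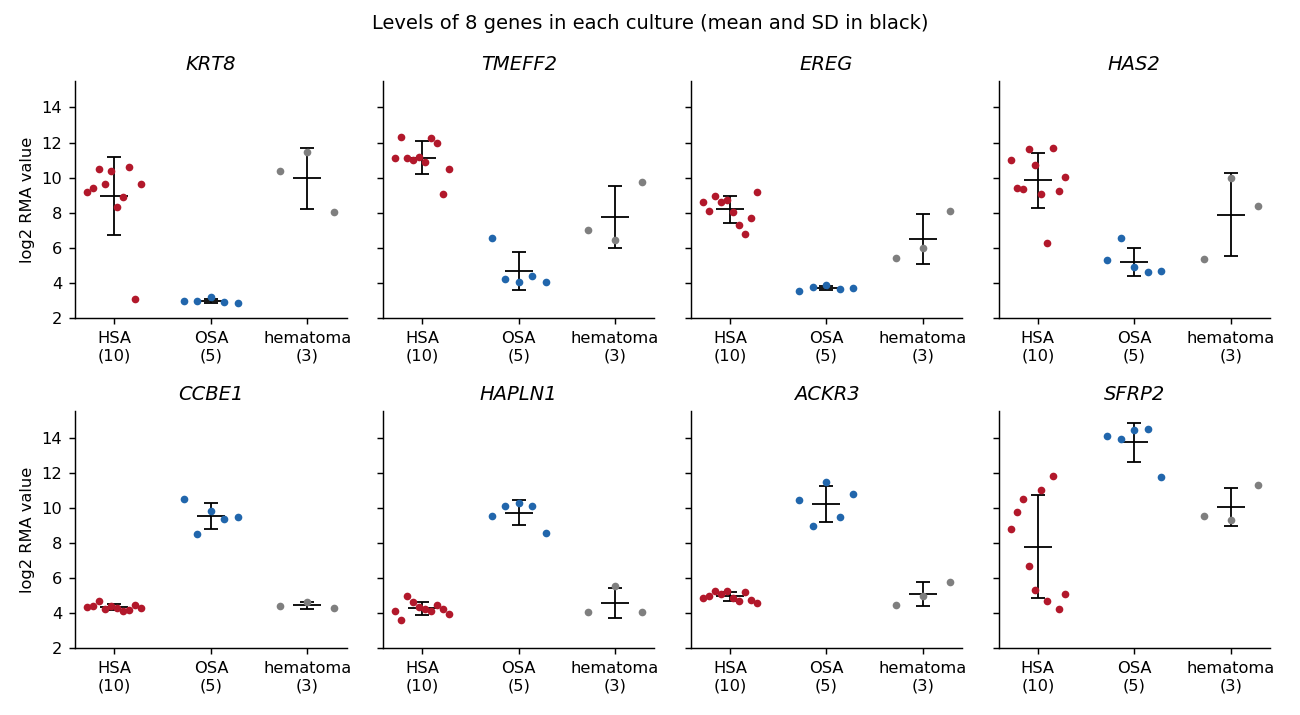
Log2 RMA values of 8 genes in each of the 10 HSA lines, 5 OSA lines and 3 hematoma cultures. Each point is 1 array, and the black bars are the mean and SD. KRT8, TMEFF2, EREG and HAS2 (top) are higher in HSA, with the single HSA line ChadP9 at the OSA level for KRT8; CCBE1, HAPLN1, ACKR3 and SFRP2 (bottom) are higher in OSA, and the HSA lines spread widely for SFRP2, from 4.22 to 11.82.

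After TMEFF2, the genes that rose most in HSA without overlap with OSA were the growth factor EREG and several genes known from nerve cells. EREG (epiregulin), a ligand of the EGF receptor, read 3.55, 3.76, 3.87, 3.66 and 3.72 in OSA and 6.78, 8.36 and 9.17 at the lowest, the median and the highest in HSA. All OSA lines were low, and all HSA lines lay well above them. The difference was +4.49 (SE 0.33, 22.4-fold; limma, adjusted p = 5.04e-07). ADGRL3 (latrophilin 3), an adhesion receptor of synapses, differed by +4.27, with OSA values of 3.98, 6.15, 3.93, 4.10 and 5.31 and HSA values of 7.61 to 10.31. DOK6, an adaptor of the RET receptor, differed by +4.09, and PLPPR5, a membrane protein linked to neurite outgrowth, by +3.96. For PLPPR5 the OSA line OSCA75, at 6.20, stood above the other OSA lines (3.28 to 3.62) and just below the lowest HSA line, Tucker, at 6.34. In hematoma DOK6 (3.81 to 6.18) and PLPPR5 (2.89 to 4.60) lay below the lowest HSA line as well. SCN9A, a voltage-gated sodium channel of sensory neurons, differed by +2.69, from 3.01 to 4.64 in OSA and from 6.24 to 7.26 in HSA. Its other probe sets, all below the filter, differed by −0.08 to +0.83.

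Of the other large increases, the integrin subunits ITGB3 (+2.72) and ITGA2 (+2.59), which bind vitronectin and collagen, and the ephrin receptor EPHA2 (+2.74) were higher in all 10 lines. EPHA2 read 5.85, 5.68, 4.58, 5.46 and 5.74 in OSA and 7.27, 8.35 and 8.58 in HSA (limma, adjusted p = 3.93e-06). PKP2 (+3.05), a plaque protein of desmosomes and cardiac junctions, and GJA1 (+2.61), the gap junction protein connexin 43, had the OSA line OSCA20 as their highest OSA value, at 7.23 and 8.95. The remaining genes were UNC45B (+3.17), a chaperone of muscle myosin, OSBPL3 (+3.00), an oxysterol-binding protein, the orphan receptor GPRC5B (+2.89), ANKRD50 (+2.85), VASH2 (+2.76), known as a promoter of vessel growth, the calcium-dependent kinase CAMK2D (+2.70), the cholesterol exporter ABCA1 (+2.67) and the metalloproteinase ADAMTS6 (+2.59). The receptor ERBB4 passed with +2.79, but from 1 of its 5 probe sets, the other 4 lying below the filter. That probe set read 9.22 in OSCA20 and 5.96 to 6.70 in the other OSA lines, and its HSA range, 9.58 to 10.03, was close to that of hematoma, 9.57 to 10.10.

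The genes higher in OSA without overlap included membrane proteins, secreted proteins and enzymes. TM4SF1, a tetraspanin-like protein that is abundant in endothelium and many tumors, read 11.01, 11.23, 12.54, 10.81 and 7.99 in OSA and 4.49, 4.89 and 7.70 in HSA, with OSCA71 the lowest OSA line. The difference was −5.30 (SE 0.69; limma, adjusted p = 0.000122). ACKR3 (CXCR7), a scavenging receptor for the chemokine CXCL12, read 10.47, 8.97, 11.49, 9.47 and 10.77 in OSA and 4.60 to 5.26 in HSA, a difference of −5.28 (SE 0.31; limma, adjusted p = 5.86e-08). All HSA lines and the 3 hematoma cultures (4.48 to 5.80) were low for ACKR3. The protease BACE2 (−4.86), IGFBP4 (−4.34), which binds insulin-like growth factors, and TNFAIP8L3 (−4.34), a phosphoinositide transfer protein, also lay in separate ranges. EPDR1 (−4.86), an ependymin-like protein, was at 5.73 or below in 9 HSA lines and at 8.84 in ChadG6.

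Matrix and matrix-linked genes in that group were MXRA5 (−4.33), ITGBL1 (−3.42) and FBLN5 (−3.12), the last a protein of elastic fibers. MXRA5 read 7.14, 8.11, 8.72, 8.63 and 8.89 in OSA and 3.17, 3.43 and 5.69 in HSA. Enzymes and mitochondrial proteins were ALDH2 (−3.97), which oxidizes acetaldehyde, the uncoupling protein UCP2 (−3.58), RNASE4 (−3.74) and the carbonyl reductase CBR3 (−3.44). C1R, a protease that starts the classical complement cascade, differed by −3.54. ENG (endoglin), a TGF-beta co-receptor that is plentiful in endothelium, read 8.24, 7.65, 8.54, 8.44 and 7.38 in OSA and 4.10, 4.25 and 7.27 in HSA. ChadP9 alone among the HSA lines came near the OSA range, and the next line lay at 5.44. The difference was −3.41 (SE 0.44; limma, adjusted p = 0.000123), its second tested probe set differed by −1.82, and the hematoma cultures read 4.18, 7.77 and 7.83. LRIG3 (−3.38), a membrane regulator of receptor kinases, MOB3B (−3.30) and the developmental gene MAB21L1 (−3.10) complete the 20 largest.

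All 40 of these largest changes, 20 in each direction, kept their call when any single line was left out. With the actin gap as a covariate 39 kept it, the exception being UNC45B. The 40 were chosen for large differences without overlap, which favors keeping a call, so their hold is no independent evidence. Of all 140 named genes that were called, these 40 among them, 71 kept the call with the actin gap and 69 lost it. The losses of the call are named below beside the genes. With the hybridization control as a covariate, which does not overlap between the groups and so takes up much of the contrast itself, 11 of the 40 kept it: TMEFF2, EREG, SCN9A and ADAMTS6 among the higher genes, and HAPLN1, CCBE1, ACKR3, BACE2, UCP2, LRIG3 and MAB21L1 among the lower. In that model 50 probe sets were higher and 92 lower in all, so that 35.2% of its calls were higher against 57.8% without the covariate. With the actin gap 645 were higher and 550 lower.

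Epithelial genes other than KRT8 and PKP2 showed no common direction. KRT18, the partner of KRT8 in simple epithelia, was split within HSA: ChadG4, ChadG6 and Dal4 read 3.73, 4.33 and 3.98, and the other 7 lines 8.39 to 13.21. OSA read 4.41, 5.41, 6.09, 4.33 and 4.23. The difference of +4.17 did not pass (SE 1.57; limma, adjusted p = 0.0593), while its second probe set did at +4.15 (adjusted p = 0.0385 from limma). Of 7 tested members of the list of simple keratins and epithelial junctions, 2 were higher (KRT8 and PKP2) and 2 lower, the transcription factor GRHL2 (−0.48) and plakoglobin (JUP, −0.67), whose 2 other probe sets had the opposite sign. The call for JUP was lost in 13 of the 15 runs that left out a line, all but those without Journey or Tucker (adjusted p up to 0.134), and that for GRHL2 without OSCA59 (0.0524, both from limma). Both lost it with the actin gap as a covariate too. EPCAM and E-cadherin (CDH1) lay below the filter. In ChadP9 KRT8 was at the OSA level while KRT18 was at 8.39.

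None of the tested genes on the 2 endothelial lists was called higher in HSA. Of 26 surface and junction markers on the array 7 were tested, 0 were higher and 2 lower, ENG and the guidance receptor ROBO4 (−0.49), with a median of −0.46. A second ROBO4 probe set, below the filter, had the opposite sign (+0.27). Of 7 tested endothelial transcription factors 0 were higher and 2 lower. Over all genes 14.1% were higher and 11.8% lower, and with 7 tested on each list 0 higher is near that share. FLI1, an ETS factor of endothelium and blood cells, read 6.33, 7.17, 7.67, 7.56 and 7.03 in OSA and 4.59, 4.90 and 5.41 in HSA, a difference of −2.23 (SE 0.19; limma, adjusted p = 3.42e-06). NR2F2 (COUP-TFII), which specifies veins, differed by −1.90 without overlap. ROBO4 lost its call with the actin gap as a covariate, and ENG, FLI1 and NR2F2 kept theirs. Fewer cells of a type and less RNA per cell cannot be told apart in such bulk samples.

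Of 18 tested angiogenic ligands and receptors 2 were higher and 3 lower (median +0.23), shares near the 14.1% and 11.8% over all genes. HGF, the ligand of MET, differed by +2.44 and PDGFC by +2.04 (limma, adjusted p = 0.00386 and 0.011), with the OSA line OSCA20 highest among OSA for both, at 5.82 and 8.29. The receptor of pericytes PDGFRB (−2.46), its ligand PDGFD (−2.86) and placental growth factor PGF (−1.78) were lower in HSA. PDGFRB read 10.70, 7.91, 9.30, 8.18 and 7.30 in OSA and 5.10, 5.85 and 7.89 in HSA, with hematoma at 8.20 to 9.12, and its second probe set, at −0.74, did not pass. VEGFC, a lymphatic growth factor, was higher in HSA by +2.08. It lay between 11.02 and 12.12 in 9 HSA lines, at 8.73 in Dal4, and at 10.50, 10.23, 9.73, 7.34 and 8.73 in OSA. Its receptor FLT4 differed by −0.42 in the other direction, a call lost without OSCA20, OSCA59, OSCA75 or any of 7 HSA lines (ChadG4, ChadG6, Frog, Joey, DD1, ChadP9 and Dal4; adjusted p up to 0.144 from limma). VEGFA did not pass (+0.53, adjusted p = 0.252 from limma). With the actin gap as a covariate HGF, PDGFC, PDGFD, PGF, VEGFC and FLT4 lost their calls and PDGFRB kept it.

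Among skeletal genes, homeobox factors and the matrix protein OMD were higher in OSA. Of 13 tested osteoblast genes 3 were lower in HSA and 1, GJA1, was higher (median −0.01, beside 0.01 for all genes tested). OMD (osteomodulin), a keratan sulfate proteoglycan of bone, read 9.30, 5.75, 10.31, 8.37 and 6.59 in OSA and 3.06, 3.89 and 6.26 in HSA. Its ranges overlapped through Dal4, the highest HSA line, and OSCA23. The difference was −4.02 (SE 0.64; limma, adjusted p = 0.00047). DLX5, a homeobox activator of osteoblast genes, read 7.07, 8.16, 7.86, 7.39 and 7.03 in OSA and 3.84, 4.57 and 5.20 in HSA (−2.88, SE 0.24; limma, adjusted p = 2.45e-06). MSX2, another homeobox gene of skull and limb bone, differed by −2.01 without overlap, a call lost with the actin gap as a covariate.

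Cartilage genes were split. Of 10 tested, 3 were higher and 3 lower in HSA. The matrix proteins HAPLN1, MATN2 (−3.69) and COMP (−1.73) were lower, and the transcription factors SOX5 (+1.86) and SOX6 (+1.40) and the hormone-like PTHLH (+2.13), which slows chondrocyte maturation, were higher. MATN2 lay at 3.65 or below in 9 HSA lines and at 6.64 in Journey, inside the OSA range of 6.39 to 9.68. COMP lost its call without OSCA23 or OSCA59 (adjusted p up to 0.0840 from limma), and COMP, PTHLH and SOX6 lost theirs with the actin gap as a covariate. PTHLH overlapped through OSCA75, at 9.97, and lay as high in hematoma (10.14 to 11.57) as in HSA (8.50 to 11.32).

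Among limb and skeletal patterning factors 5 of 8 tested were lower in HSA and 1 higher, with a median of −1.48, against 11.8% lower and 14.1% higher over all genes. The homeobox genes ALX1 (−2.44), PRRX2 (−2.41), SHOX2 (−1.67) and PRRX1 (−1.47) and the basic helix-loop-helix factor TWIST1 (−1.49) act in limb bud or craniofacial mesenchyme. PRRX2 read 10.29, 9.48, 10.25, 8.34 and 8.95 in OSA and 6.58, 7.09 and 7.92 in HSA. SHOX2 read 6.44, 7.39, 6.90, 5.99 and 6.33 in OSA and 4.46 to 5.32 in HSA. Neither overlapped. ALX1 was low in 9 HSA lines and at 7.29 in ChadG6, and PRRX1 overlapped through OSCA71, the lowest OSA line, while its 2 other probe sets, at −0.77 and −0.84, did not pass. HAND2, a factor of heart, limb and visceral mesenchyme, was higher in HSA by +1.88. TWIST1 lost its call with the actin gap as a covariate and the other 5 kept theirs.

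Of 4 tested transcription factors of splenic mesenchyme, 2 were higher in HSA and 0 lower, beside 14.1% and 11.8% over all genes. MEIS1, a homeobox partner of HOX proteins, read 5.23, 5.20, 5.63, 5.73 and 5.09 in OSA and 6.55, 7.50 and 8.49 in HSA, a difference of +2.21 (SE 0.24; limma, adjusted p = 3.32e-05). NR2F1 (COUP-TFI) read 7.78, 6.85, 7.84, 8.76 and 7.36 in OSA and 8.94, 10.19 and 10.52 in HSA (+2.35). The OSA line OSCA75 came close to ChadG4, the lowest HSA line, and the other 9 HSA lines lay at 9.83 or above. Hematoma cultures, also grown from spleen, read 7.24, 6.70 and 8.43 for MEIS1, all within the HSA range, and 9.52, 7.32 and 9.96 for NR2F1, of which Baxter, at 7.32, lay below it. Of 13 neural crest and mesenchymal factors 6 were lower and 3 higher, beside 11.8% and 14.1% over all genes. Among the lower were IRX5 (−2.58), OSR1 (−1.60) and IRX3 (−1.34), none of them overlapping, and among the higher TFAP2A (+1.88) and ZEB2 (+1.08). Of 8 HOX genes, HOXA7 alone passed (−1.48), a call lost without OSCA59 (adjusted p = 0.0503 from limma). TFAP2A, ZEB2 and HOXA7 lost their calls with the actin gap as a covariate.

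**Figure D4:**
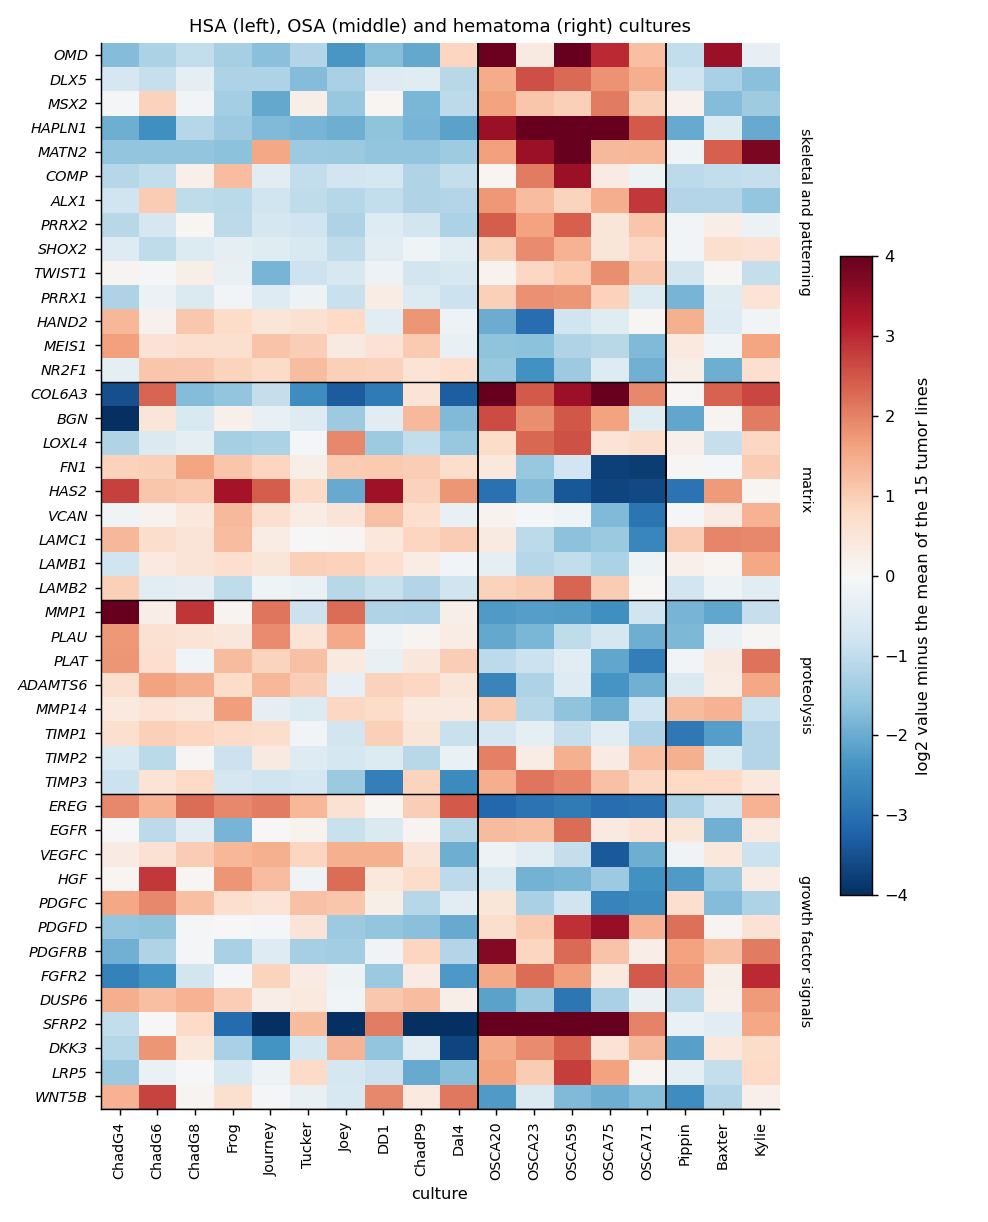
Levels of 44 named genes in each HSA line (left), OSA line (middle) and hematoma culture (right). Colors are the log2 value minus the gene's mean over the 15 tumor lines, red higher and blue lower, and saturate at 4 units. Patterning genes such as DLX5 and SHOX2 are uniform within OSA, whereas COL6A3, MMP1 and SFRP2 vary among the HSA lines.

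Of 32 tested interstitial collagens and crosslinkers 2 were higher and 5 lower in HSA, and 25 did not pass. Over all genes 14.1% were higher and 11.8% lower. COL6A3, a chain of the beaded-filament collagen VI, read 11.82, 9.48, 10.43, 11.21 and 8.94 in OSA and 3.50, 4.90 and 9.35 in HSA. The HSA lines varied widely, with ChadG6 in the OSA range and ChadP9 next at 7.54. The difference was −5.05 (SE 0.85; limma, adjusted p = 0.00072). Biglycan (BGN, −2.42), the lysyl oxidase LOXL4 (−2.04) and elastin (ELN, −0.63) were lower as well; the call for BGN was lost without OSCA20, OSCA23, OSCA59 or OSCA75 (adjusted p up to 0.0839 from limma). Fibronectin (FN1) was higher in HSA. It read 13.55, 11.61, 12.37, 9.39 and 9.34 in OSA and 13.36, 14.10 and 14.71 in HSA, so that OSCA20 lay within the HSA range and OSCA75 and OSCA71 were lowest. The difference was +2.82 (SE 0.54; limma, adjusted p = 0.00159), and 3 other probe sets of FN1 gave +0.58 to +3.17. The 3 OSA arrays with the largest actin gaps were OSCA75 (1.85), OSCA59 (1.80) and OSCA71 (1.55), and of these OSCA59 read FN1 at 12.37. Whether RNA quality has a part in the FN1 difference was not tested. With the actin gap as a covariate FN1 lost its call (+1.96, adjusted p = 0.102 from limma). BGN, LOXL4 and the collagen prolyl hydroxylase P4HA2 (+0.92) lost theirs in that model too, and COL6A3 and ELN kept them.

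Of 15 tested genes of hyaluronan synthesis, binding and turnover 3 were higher in HSA, 2 were lower and 10 did not pass. HAS2, the main hyaluronan synthase of mesenchyme, read 5.31, 6.55, 4.90, 4.62 and 4.69 in OSA and 6.28, 9.72 and 11.67 in HSA. Only Joey, at 6.28, lay within the OSA range, and the next HSA line lay at 9.07. The difference was +4.63 (SE 0.70, 24.7-fold; limma, adjusted p = 0.000342). UGDH (+1.30), which makes the UDP-glucuronate that hyaluronan is built from, and the hyaluronan-binding proteoglycan versican (VCAN, +1.43) were also higher, the last with a call lost without OSCA75 or OSCA71 (adjusted p up to 0.0711 from limma). HAPLN1 and the hyaluronidase HYAL1 (−1.27) were lower. UGDH and VCAN lost their calls with the actin gap as a covariate, and HAS2, HAPLN1 and HYAL1 kept them. In the basement membrane the laminin chains LAMC1 (+1.93) and LAMB1 (+1.20) were higher, and LAMB2 (−1.60) and agrin (AGRN, −0.55) lower, with 10 of 14 not passing. LAMB2 had 1 other tested probe set of opposite sign (+0.62), which did not pass. All 4 lost their calls with the actin gap as a covariate.

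Of 19 tested matrix proteinases and inhibitors 6 were higher (MMP1, MMP14, PLAU, PLAT, ADAMTS6 and TIMP1) and 3 lower (TIMP2, TIMP3 and MMP17), beside 14.1% and 11.8% over all genes. The plasminogen activators PLAU (+2.28) and PLAT (+2.16) were higher in all 10 HSA lines than in any OSA line. PLAU read 7.40, 7.63, 8.44, 8.75 and 7.51 in OSA and 9.32, 10.01 and 11.36 in HSA (limma, adjusted p = 0.00036). The collagenase MMP1 (+2.99) ranged within HSA from 4.96 in ChadP9 to 11.63 in ChadG4 and lay at or below 3.99 in 4 OSA lines. The membrane-type proteinase MMP14 (+1.34) exceeded OSCA20, at 9.65, in 1 HSA line only. TIMP2 (−1.58) and TIMP3 (−2.26), inhibitors of these enzymes, were lower in HSA. TIMP2 read 11.53, 9.81, 10.94, 9.84 and 10.72 in OSA and 8.40, 8.94 and 9.89 in HSA. TIMP1 went the other way (+1.10), from 12.46 to 13.34 in OSA and from 12.84 to 14.68 in HSA, near the highest value in the table, 14.98. MMP14 lost its call without OSCA23, OSCA59 or OSCA75 (adjusted p up to 0.0881), and MMP1 without OSCA59 or OSCA75 (up to 0.0546, both from limma). MMP1, MMP14, TIMP1 and TIMP3 lost their calls with the actin gap as a covariate, and PLAU, PLAT, ADAMTS6 and TIMP2 kept them.

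Of 18 tested cadherins and integrins 4 were higher and 0 lower in HSA (median +0.47), beside 14.1% and 11.8% over all genes. The 4 were the integrin subunits ITGA7 (+2.92), ITGB3, ITGA2 and ITGB1 (+1.40). The other 14 did not pass, among them the integrin subunits ITGAV (+0.55), ITGA5 (+0.82) and ITGB5 (−0.22). ITGA7, a laminin receptor of muscle, had 4 other probe sets between −0.75 and +2.90, 1 of which passed with the opposite sign. A second probe set of ITGB1, below the filter, went the other way without overlap (−1.90). It read 3.37 to 4.13 in HSA and 5.17 to 6.41 in OSA. Of 18 contractile and mural genes 0 passed in either direction. Among Eph receptors and ephrins EPHA2 and EFNB1 (+1.36) were higher and EPHB3 (−1.07) lower. ITGA7, ITGB1, EFNB1 and EPHB3 lost their calls with the actin gap as a covariate.

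Of 15 tested Wnt genes 7 were lower in HSA, 1 was higher and 7 did not pass, with a median of −0.47, beside 11.8% lower and 14.1% higher over all genes. SFRP2, a secreted modulator of Wnt signals, was the most variable of them within HSA. It read 14.07, 13.90, 14.43, 14.48 and 11.76 in OSA and 4.22, 7.74 and 11.82 in HSA. DD1 alone reached the level of OSCA71, and 5 HSA lines lay below 7. The difference was −5.93 (SE 1.24; limma, adjusted p = 0.00293), and the gene's 2 further probe sets gave −5.73 and −5.53. The co-receptor LRP5 (−2.13), the secreted DKK3 (−2.29), the Wnt target AXIN2 (−0.95) and the receptor ROR2 (−0.92) were lower too, and the ligand WNT5B (+2.48) was higher. AXIN2 read 6.32, 6.72, 7.09, 6.99 and 6.70 in OSA and 5.40, 5.90 and 6.07 in HSA. DKK3 lost its call without OSCA23 or OSCA59 (adjusted p up to 0.0744 from limma). All 6 Wnt genes described here (SFRP2, LRP5, DKK3, AXIN2, ROR2 and WNT5B) lost theirs with the actin gap as a covariate.

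In the EGF family 2 of 6 tested members were higher in HSA (EREG and its receptor ERBB4) and 2 lower (TGFA and EGFR). EREG also binds EGFR, which read 9.51, 9.45, 10.50, 8.66 and 8.85 in OSA and 6.39, 7.74 and 8.38 in HSA, a difference of −1.71 (SE 0.35; limma, adjusted p = 0.00248) without overlap. A second EGFR probe set, below the filter, differed by +0.35 with overlapping ranges. TGFA, a further ligand, differed by −0.40, a call lost without Frog, Joey, OSCA23, OSCA59 or OSCA75 (adjusted p up to 0.107 from limma). Of 7 tested members of the FGF list, which holds feedback genes as well as ligands and receptors, 2 were higher and 1 lower, and the ligands FGF2 (+0.82), FGF5 (−0.76) and FGF7 (+0.36) did not pass. The receptor FGFR2 (−2.49) was lower in HSA, with a second tested probe set at −0.84 that did not pass. DUSP6, a phosphatase induced by ERK signaling, read 8.44, 9.08, 7.66, 9.27 and 10.27 in OSA and 10.45, 11.60 and 12.03 in HSA (+2.44; limma, adjusted p = 0.000309), and the feedback inhibitor SPRY1 (+1.28) lay above OSA in all 10 lines, with a call lost without OSCA59 or OSCA75 (up to 0.0564). Of 24 BMP, activin and TGF-beta genes 3 were higher and 1 lower, beside 14.1% and 11.8% over all genes. TGFBR1, the type I receptor, differed by +2.43, TWSG1 by +1.87, LTBP2 by +2.80 and ID4 by −0.89. OSCA20 was the highest OSA line for TGFBR1, TWSG1 and LTBP2, at 6.89, 9.37 and 8.70. Of the 3 other tested LTBP2 probe sets, 1 passed in the same direction and 2 lay at −0.04 and −0.07. LTBP2 lost its call without OSCA59, OSCA75 or OSCA71 (adjusted p up to 0.0851) and ID4 without Frog, Dal4, OSCA75 or OSCA71 (up to 0.100, both from limma). With the actin gap as a covariate EGFR, TGFA, FGFR2, SPRY1, TWSG1, LTBP2 and ID4 lost their calls, and EREG, ERBB4, DUSP6 and TGFBR1 kept theirs.

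Of 14 tested genes known from neurons 8 were higher and 2 lower, with a median of +1.02, beside 14.1% and 11.8% over all genes. The list was written with earlier results of these data known and holds TMEFF2, DOK6 and SCN9A, already described for their size of change, so its count is no independent evidence of a direction. The others with the largest differences were the secreted guidance cues SEMA3C (+2.58), SEMA3A (+2.47) and SEMA3D (+1.83). SEMA3A lay at 3.23 to 4.30 in OSA and at 3.52 to 8.02 in HSA, lowest in Dal4. SEMA3C was at 10.32 in OSCA20 and at 6.25 to 7.27 in the other OSA lines. All 3 semaphorins lost their calls with the actin gap as a covariate. The 2 lower members were SLIT3 (−1.77), a guidance cue too, and the adhesion protein CNTN1 (−1.01).

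**Figure D5:**
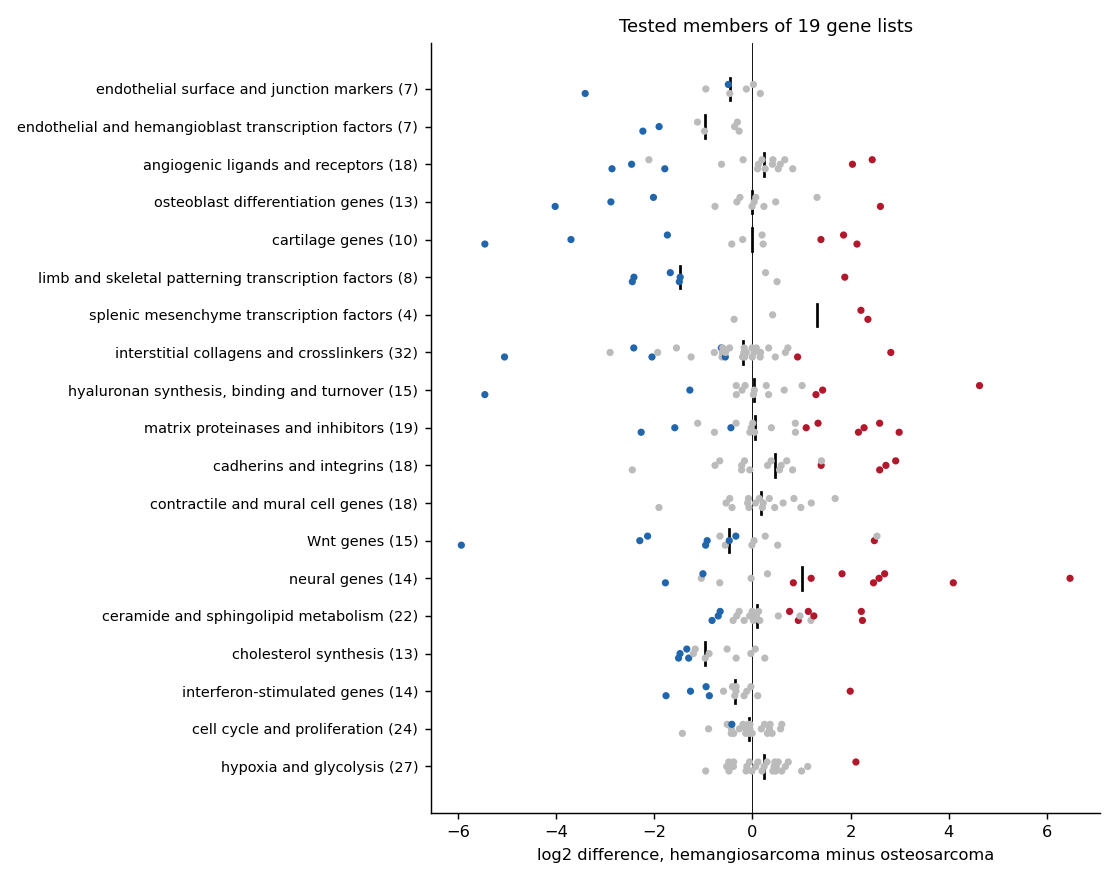
Log2 difference, HSA minus OSA, of the tested members of 19 gene lists. Each point is a gene, red where it was higher and blue where it was lower in HSA at a limma adjusted p below 0.05, and gray where it did not pass; the black bar is the list's median, and the number tested stands in parentheses. Limb and skeletal patterning factors lie mainly to the left, and the contractile and cell cycle lists hold almost no colored points.

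Metabolic and signaling lists held smaller changes. Of 13 genes of cholesterol synthesis 4 were lower in HSA and 0 higher (median −0.96): NSDHL (−1.50), MVD (−1.47), FDFT1 (−1.34) and the regulator SREBF2 (−1.30). NSDHL read 10.22, 9.44, 7.51, 8.80 and 8.55 in OSA and 6.39, 7.32 and 8.24 in HSA, with OSCA59 the lowest OSA line, as for MVD (7.67). Of 22 genes of ceramide and sphingolipid metabolism 6 were higher and 3 lower, beside 14.1% and 11.8% over all genes. SGPL1, which cleaves sphingosine phosphate, differed by +2.24, SPTLC1, of the first step of synthesis, by +1.25, and S1PR1, a receptor for sphingosine phosphate, by +2.22 without overlap. Acid ceramidase (ASAH1) did not pass with its brightest probe set (+0.97, adjusted p = 0.084 from limma) and passed with the other (+1.21, adjusted p = 0.0222). Interferon-stimulated genes were 4 lower and 1 higher of 14, beside 11.8% and 14.1% over all genes. The lower ones were PSMB9 (−1.76), ISG15 (−1.26), TAP1 (−0.94) and IRF1 (−0.88), of which PSMB9 and TAP1 serve antigen processing. ISG15 lost its call without ChadG8, Frog, Journey, OSCA75 or OSCA71 (adjusted p up to 0.112 from limma). The higher one was IFI44 (+1.99), at 4.78 to 6.34 in OSA and 6.59 to 8.76 in HSA. With the actin gap as a covariate FDFT1, SREBF2, SGPL1, SPTLC1, ISG15, TAP1 and IRF1 lost their calls, and NSDHL, MVD, S1PR1, PSMB9 and IFI44 kept theirs.

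Inflammatory genes were 2 higher and 3 lower of 18, shares near the 14.1% and 11.8% over all genes. PTGES, which makes prostaglandin E2, read 10.83, 9.92, 11.32, 8.37 and 7.67 in OSA and 5.29, 5.71 and 8.23 in HSA, a difference of −3.37 (SE 0.64; limma, adjusted p = 0.00153). Joey, the highest HSA line, lay above OSCA71. The oncostatin M receptor OSMR (+1.78) and the shared receptor chain IL6ST (+1.12) were higher. OSMR was at 9.14 in OSCA20 and at 6.51 to 7.39 in the other OSA lines, and hematoma was low too, at 6.16 to 7.35. IL6ST lost its call without ChadG4, Frog, Tucker, Joey, ChadP9, OSCA23, OSCA59, OSCA75 or OSCA71 (adjusted p up to 0.137 from limma). PTGES, OSMR and IL6ST lost their calls with the actin gap as a covariate.

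Few genes of proliferation and oxygen response passed. Of 24 cell cycle genes 0 were higher and 1, UBE2C (−0.42), was lower, and of 27 genes of hypoxia and glycolysis 1, the carbonic anhydrase CA12 (+2.11), was higher and 0 lower. A difference that misses the threshold with 10 and 5 lines is not shown to be absent. Of 16 D cyclins, CDK inhibitors and partners, the tumor suppressor RB1 was higher in HSA by +1.87. It read 4.28, 5.10, 5.26, 4.39 and 4.09 in OSA and 4.97, 6.47 and 7.76 in HSA, where Dal4 was the lowest line, and its second probe set differed by +1.48 (limma, adjusted p = 0.00596 and 0.0271). MDM2, which degrades p53, was higher by +1.07 and reached 13.22 in ChadG4, and CCND3 was lower by −0.68. The call of UBE2C was lost in 11 and that of CCND3 in 9 of the 15 runs that left out a line (adjusted p up to 0.108 and 0.115 from limma). UBE2C kept its call without OSCA20, Tucker, Joey or Dal4, and CCND3 without OSCA20, OSCA59, Frog, DD1, ChadP9 or Dal4. UBE2C, CA12, RB1, MDM2 and CCND3 lost their calls with the actin gap as a covariate.

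Of the 8 genes that the study named as higher in HSA than in other tumors, 7 were tested here, 4 were higher against OSA alone (FN1, PDGFC, MMP14 and TIMP1), 0 were lower and 3 did not pass (VEGFA, ADAM9 at +0.05 and ASAH1). TNF lay below the filter. The study chose these genes on arrays that include these lines, so their direction is no independent evidence. VEGFA and ADAM9 passed with another probe set (+1.83 and +1.25, adjusted p = 0.0108 and 0.0237 from limma). As averages, markers of other cell types were low in both groups. Averaged over 19 myeloid markers, levels ran from 4.77 to 5.10 in HSA and from 4.79 to 5.23 in OSA, against 6.42 to 8.39 in the leukemias and lymphomas of the series, and over 18 lymphocyte markers from 4.78 to 5.32 and from 4.76 to 4.99, against 7.65 to 10.2. Of the defining markers PTPRC, CSF1R, ITGAM, CD79A and MS4A1 and the mesothelial UPK3B, WT1 and CALB2 lay below the filter, and CD14 and CD3E did not pass. The myeloid CD14 itself was not low: it read 5.83 in Dal4 to 7.52 in Journey, above the HSA array medians of 5.62 to 5.68. One myeloid gene differed, the calcium-binding S100A8 (−1.98), at 9.12 in OSCA71 and 5.37 in OSCA20. Of 11 housekeeping genes RPLP0 alone passed, at +0.46, a call lost without OSCA59, OSCA75 or OSCA71 (adjusted p up to 0.0919 from limma). Of the genes just named FN1, PDGFC, MMP14, TIMP1, S100A8 and RPLP0 lost their calls with the actin gap as a covariate.

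Some genes with a clear OSA signal were never tested because 1 or more OSA lines fell below the array median. Without a filter, 191 of the 5487 untested genes would be higher and 449 lower in HSA, 0 and 10 of them by at least 2 units. Chosen after their values were seen, 3 of these are the heparan sulfate proteoglycan GPC4, the Hedgehog co-receptor CDON and the Wnt receptor ROR1. GPC4 read 4.98, 6.95, 6.47, 8.52 and 6.75 in OSA and 2.96 to 4.66 in HSA (−3.20). CDON read 7.62, 6.40, 7.93, 5.76 and 5.51 in OSA and 3.83 to 5.33 in HSA (−2.24). ROR1 read 5.30, 4.74, 5.40, 5.67 and 7.15 in OSA and 3.33 to 4.64 in HSA (−1.81).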

How the data were processed

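Total RNA of 34 canine cell samples had been hybridized to Affymetrix Canine_2 arrays, of which 15 enter the comparison, 10 HSA and 5 OSA. As deposited, each value is a log2 signal per probe set, which the authors had obtained by RMA in the affy package. The version, and whether all arrays were summarized in 1 run, are not given in the sources used here. RMA forces a common distribution on the arrays, so a change in total RNA per cell is not seen. From its 43035 probe sets 175 controls were removed. A platform table gave 29254 probe sets 1 gene symbol, 439 several and 13167 none, and 27680 were matched by gene number to the current gene table. A gene was read by its probe set with 1 symbol and the highest mean over the 15 arrays.

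Groups were taken from the label of tumor type, and each line counted as 1 replicate. Probe sets above the array median on at least 5 arrays were compared with limma 3.58.1 (R 4.3.3), without covariates, and adjusted over all tested by the method of Benjamini and Hochberg. The number of arrays limits the precision. In a simulation 200 probe sets were changed, 50 at each size of change, with 22779 tested. Of the 50, 52% were found at 1 log2 unit and 92% at 3, where the filter admitted 49 and 47. Of the simulation's 163 calls 6 were false. The data gave 6365 calls, so the adjusted threshold was stricter in the simulation and its rates do not carry over directly. Single markers were also tested by exact permutation. Other steps used Python 3.11.15 with pandas 2.3.3, numpy 2.4.6, scipy 1.17.1 and matplotlib 3.10.9.

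Named genes are the 4 markers, the 20 largest changes in each direction among called genes whose groups did not overlap, up to 6 called members of each list with its defining members, and the 8 genes the study named. The 37 lists hold 879 genes, of which 755 had a probe set of 1 symbol. Members and lists were chosen with earlier results of these data known. Alternatives covered the filter, the threshold, the normalization, the test, covariates, breed, the probe set and each line left out.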

Additional observations from a re-analysis of the deposited data

Results flagged for a closer look

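Among 302 groups of values examined, 40 held a line far from the others of its kind, 25 in HSA and 15 in OSA. Chance alone would give such a line in about 1 in 20 groups. The cause of these patterns was not tested.

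OSCA20 stood apart in 8 of the 15 OSA cases. It was the highest OSA line for TMEFF2 (6.57, the next 4.42), ERBB4 (9.22, the next 6.70), GJA1 (8.95, the next 7.78), SEMA3C (10.32, the next 7.27), TWSG1 (9.37, the next 7.04), S1PR1 (6.34, the next 5.33) and TFAP2A (4.37, the next 3.96). It was the lowest for UBE2C (6.52, the next 7.35). In all 8 genes it stood on the side of the HSA lines, and its array had the lowest hybridization control signal of the OSA arrays, 9.66. Other OSA lines apart were OSCA75 for PLPPR5 (6.20), OSCA59 for IGFBP4 (12.70) and MVD (7.67), OSCA23 for SPRY1 (5.52), and OSCA71 for MMP1 (5.40), SFRP2 (11.76) and CCND3 (8.40).

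In HSA, ChadP9 stood apart for KRT8 (3.07, the next 8.31), EPHA2 (7.27) and ENG (7.27). Dal4 did so for VEGFC (8.73, the next 11.02), CAMK2D (11.48), OMD (6.26) and ADAM9 (8.79). ChadG4 was the lowest for LTBP2 (4.54, the next 9.56), BGN (6.22) and NR2F1 (8.94) and the highest for MOB3B (7.92), LAMB2 (10.06) and MDM2 (13.22). ChadG6 was the highest for EPDR1 (8.84) and ALX1 (7.29). Journey was the highest for MATN2 (6.64) and the lowest for SOX5 (4.99) and TWIST1 (4.06). Tucker was the highest for BACE2 (5.47) and ITGBL1 (6.88) and for the GAPDH gap (1.04). Joey was the highest for HOXA7 (7.51) and LOXL4 (8.92) and the lowest for HAS2 (6.28), and DD1 was the highest for OSR1 (5.57).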

How the results depend on the processing

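No paired analysis was possible because the HSA and OSA lines came from different dogs. The counts of calls were 3681 probe sets higher and 2684 lower, and over the gene lists 64 and 70 members. Leaving out each line in turn gave 2745 to 4148 and 2004 to 2952 probe sets, and 59 to 71 and 60 to 78 members. Counts changed by over 1.5 times as follows. With the hybridization control as a covariate they were 50 and 92 probe sets and 5 and 5 members, with the actin gap 645 and 550, and 25 and 24, and with golden retrievers alone 2180 and 1549 probe sets. Without a filter the lower counts were 4460 and 113. Without probe sets that can match several transcripts the counts were 1762 and 1749, with 31 members higher. An adjusted p of 0.01 left 1906 and 1237 with 44 members lower, and a least difference of 1 left 1730 and 987 with 46 members lower. The sex of the dog, array weights, other normalizations, Student's t-test (3467 and 2662) and the other settings stayed within that range.

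With the hybridization control as a covariate the sign turned for GRHL2 (0.19), FLT4 (0.0027), COMP (0.55), MMP14 (−0.64), TGFA (0.28) and UBE2C (0.093). Other tested probe sets turned it for JUP (0.10, also the set of largest variance, and 0.53), P4HA2 (−0.13), LAMB2 (0.62), ITGA7 (−0.30 and −0.75) and LTBP2 (−0.044 and −0.073). Below the filter, probe sets turned it too for ITGB1 (−1.90), EGFR (0.35), LAMB1 (−0.37 and −0.29), ROBO4 (0.27) and ERBB4 (−0.20 and −0.013). Smaller values of opposite sign there were those of UBE2C (0.19), GRHL2 (0.085), SOX6 (−0.084), SCN9A (−0.075 and −0.041) and ITGA2 (−0.0021). The cause was not tested. Of 140 named genes called, 120 kept the call whichever single line was left out, 71 kept it with the actin gap as a covariate, with 69 losing it, and 14 with the hybridization control. With golden retriever lines alone, a fit with fewer arrays, 122 kept it and 18 lost it.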

Other observations

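Calls were unevenly spread over the chromosomes, named by the dog assembly UU_Cfam_GSD_1.0 for 9091 tested genes. On chromosome 22 there were 30 of 99 genes higher and 3 lower in HSA, on chromosome 29 25 of 90 and 3, on chromosome 19 26 of 83 and 1, and on chromosome 38 23 of 81 and 6. These had the highest median differences of the 39 chromosomes. Their shares higher were 30.3%, 27.8%, 31.3% and 28.4%, beside 14.1% over all tested genes. On chromosome 12, which had the lowest median, 18 of 296 (6.08%) were higher and 42 (14.2%) lower. That share lower was near the 11.8% over all tested genes. No test was made of these counts, and neighboring genes are not independent.

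Single lines stood out in the median deviation of a chromosome's genes from their mean over the 15 lines, less the line's median over all tested genes. For chromosome 22, which carries RB1, this was −0.79 in OSCA71, −0.51 in OSCA75 and −0.44 in Dal4, against −0.01 to 0.05 in the other OSA lines and 0.09 to 0.32 in the other HSA lines. For chromosome 12 it was −0.46 in ChadG4, −0.48 in Dal4, −0.42 in OSCA75 and 0.53 in OSCA71. For chromosome 29 it was −0.50 in OSCA71, −0.28 in ChadG4 and 0.54 in Dal4, and for chromosome 38 it was 0.68 in Dal4. The arrays measure RNA, and gene copy number was not measured.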
